A study of Rattus norvegicus with 47 samples.

Results

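The comparison described here sets 4 arrays of rat cerebral cortex, numbered 5 to 8, against 3 arrays of the same tissue, side and time, numbered 1, 3 and 4. All 7 are labelled as cortex of the ipsilateral side (that of the injury) at 4 h after injury, and they are 7 of the 47 arrays of the series. The arrays were split at the run of extraction numbers in the sample titles, and this split was chosen by the measured signals: it was selected on earlier results of the same arrays, in which these blocks had differed. Every value of arrays 5 to 8 against arrays 1, 3 and 4 is therefore given as a description, without a test. The labels give both blocks of numbers the same description and do not say what sets them apart, whether an injury, a sham operation, a treatment or a batch. The sources used here give no strain, age, sex or injury model. Separate arrays are not stated to be separate animals, and a p-value therefore speaks only of spread among these samples, possibly technical spread.

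Later-numbered arrays were compared with earlier-numbered ones in 3 other groups, which the split did not use, and these comparisons were tested. These were ipsilateral hippocampus at 4 h (arrays 21, 22 and 24 against arrays 17 to 20, taking the label "HC" to mean hippocampus), ipsilateral cortex at 24 h (arrays 37 to 40 against 33 to 36) and contralateral cortex at 4 h (arrays 13 to 16 against 9 to 12). They share no array with the cortex at 4 h. The labels do not say whether they share animals with it or with one another, nor whether the numbers divide each group in the same way.

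Within hours of an injury to the brain, microglia, astrocytes and vessel cells release cytokines and chemokines, small secreted proteins that call leukocytes into the tissue. Transcription factors of the NF-kappaB and C/EBP families switch on many of these genes, together with acute phase proteins, inhibitors of matrix proteases and enzymes that break down haem. Phagocyte genes usually follow later, as microglia become reactive and blood monocytes enter. In RNA of whole tissue, fewer cells of a type and less RNA per cell cannot be told apart.

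Signal is the deposited intensity of a probe set, a group of short probes against 1 transcript. Signals under 185.8, the 25th percentile of all values, were raised to that floor before log2 was taken, so a fold against arrays at the floor is a lower limit. The signals printed for single arrays are those before this step. Median signal ran from 621 to 787 on arrays 5 to 8 and from 704 to 732 on arrays 1, 3 and 4. The 3-prime to 5-prime ratio of the Gapdh control probes, a measure of RNA integrity, ran from 1.08 to 1.33 on arrays 5 to 8 and from 1.09 to 1.22 on arrays 1, 3 and 4. The same ratio of the beta-actin control probes ran from 1.51 to 1.89 on arrays 5 to 8 and from 1.39 to 1.75 on arrays 1, 3 and 4. Pearson's r across probe sets, which are not independent of each other, was 0.956 to 0.976 among arrays 5 to 8 and 0.967 to 0.972 among arrays 1, 3 and 4. Between the blocks it was 0.957 to 0.969, so over all probe sets the blocks were about as alike as arrays within a block. Markers of neurons, astrocytes and oligodendrocytes were above the floor on all 7 arrays. Of leukocyte markers, Csf1r and Cd3d were at the floor on all 7 arrays, while Aif1, C1qb and Lck were above it on all 7.

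Of 7972 probe sets, 46 (0.577%) were higher on every one of arrays 5 to 8 than on any of arrays 1, 3 and 4 with means at least 2-fold apart, and 18 (0.226%) were lower in the same sense. The higher set was led by chemokines, C/EBP factors, a protease inhibitor and acute phase genes, with differences of up to 2.75 log2 units (Cebpd). It held 34 probe sets that name 1 gene, for 30 genes. Its median difference was 1.39 log2 units and its folds ran from 2.01 to 6.71. On all 7 arrays 22 of the 46 were above the floor, and for 5 of them arrays 1, 3 and 4 were all at the floor. Without any 1 of the 7 arrays the sets held 52 to 69 and 30 to 65 probe sets, since fewer arrays overlap less easily. The lower set had 16 genes, a median difference of −1.21 and a largest fold of 3.46.

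Chemokines gave some of the widest gaps. Ccl2, which draws monocytes, had signals of 2814, 1277, 3113 and 2674 on arrays 5 to 8 and of 133, 668 and 570 on arrays 1, 3 and 4 (probe set X17053mRNA_s_at). Array 6 was the low one of its block and still stood well above array 3. The log2 means were 11.19 ± 0.59 (SD, n = 4) and 8.69 ± 1.01 (n = 3), a difference of 2.50 (SE 0.40), or 5.65-fold. Each SD is that of the block itself, whereas every SE given here comes from the model of all 47 arrays. That model estimates spread over all groups, those at the floor included, so an SE can be smaller than the SDs of the blocks imply. A separate Ccl2 probe set (X17053cds_s_at) had 3883, 803, 2614 and 3868 on arrays 5 to 8 and 510, 685 and 579 on arrays 1, 3 and 4, with array 6 again lowest of its block. Its difference was 2.01 (SE 0.43).

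Ccl3, a chemokine of activated macrophages and microglia, had 1818, 518, 805 and 1479 on arrays 5 to 8 and 17.4, 69.4 and 122 on arrays 1, 3 and 4. The transcript was thus below the floor on every one of arrays 1, 3 and 4, and its difference of 2.47 (SE 0.28), at least 5.54-fold, is a lower limit. Cxcl10, an interferon-induced chemokine for T cells, had 1345, 1030, 1087 and 1156 on arrays 5 to 8 and 122, 752 and 281 on arrays 1, 3 and 4. Arrays 5 to 8 lay close together while arrays 1, 3 and 4 were spread widely, with array 3 nearest to the other block. The difference was 1.76 (SE 0.33), or 3.38-fold.

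Interleukin-1 beta (Il1b), an early cytokine of microglia and monocytes, had 852, 869, 877 and 551 on arrays 5 to 8 and 121, 460 and 281 on arrays 1, 3 and 4. Array 8 was lower than the other 3 of its block, and array 3 was the highest of its own. The difference was 1.42 (SE 0.35), and a separate Il1b probe set (M98820_g_at) differed by 1.39 (SE 0.20), while E01884cds_s_at differed by 0.60 (SE 0.22) with overlap. Il1rl2, the receptor of the interleukin-36 cytokines, had 251, 1031, 591 and 531 on arrays 5 to 8 and 165, 210 and 170 on arrays 1, 3 and 4. Its arrays 5 to 8 were widely spread, and the gap between the blocks was narrow at array 5. Cd14, a co-receptor for bacterial lipopolysaccharide on myeloid cells, had 916, 1011, 502 and 716 on arrays 5 to 8 and 254, 58.0 and 298 on arrays 1, 3 and 4, a difference of 1.65 (SE 0.37). Its brighter probe set (AF087944mRNA_s_at) differed by 0.45 (SE 0.34) with overlapping arrays, so the Cd14 probe sets disagree in size.

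Among transcription factors Cebpd, a C/EBP factor of the acute phase response, had the largest difference of all (rc_AI045030_s_at). Its signals were 1178, 1240, 1094 and 1509 on arrays 5 to 8 and 122, 144 and 138 on arrays 1, 3 and 4. Arrays 5 to 8 were even, and arrays 1, 3 and 4 were all below the floor, so that the difference of 2.75 (SE 0.22), at least 6.71-fold, is a lower limit. The probe set M65149_at of the same gene differed by 1.54 (SE 0.31), and the brightest of its 3 probe sets, rc_AA946292_at, by −0.03 (SE 0.37) with overlap. The related Cebpb had 1294, 2112, 2292 and 2513 on arrays 5 to 8 and 381, 1191 and 745 on arrays 1, 3 and 4, a difference of 1.52 (SE 0.33). Here array 5 and array 3 nearly met. Myc, a factor of cell growth, had 650, 596, 335 and 456 on arrays 5 to 8 and 207, 142 and 329 on arrays 1, 3 and 4, a difference of 1.08 (SE 0.32) with array 7 just above array 4.

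Nfkbia encodes the inhibitor that holds NF-kappaB in the cytoplasm and is itself a target gene of NF-kappaB. It had 2198, 2200, 2583 and 2833 on arrays 5 to 8 and 881, 874 and 1459 on arrays 1, 3 and 4 (X63594cds_g_at). Arrays 5 to 8 formed a tight block above array 4, with a difference of 1.23 (SE 0.21). The brightest Nfkbia probe set (X63594cds_at) differed by 0.68 (SE 0.22) with overlap. The bases before the gene starts of Nfkbia and Cxcl10 are shown because these were the only members of the higher set, among those with a promoter in the RefSeq table, that held an NF-kappaB-type motif, the letters GGGAA, then any base, then TTCC, searched on both strands. Each sequence is the 250 bases before the start in build GRCr8, 5′ to 3′ on the strand of the gene, with matches of the motifs searched in capitals. Nfkbia lies at chr6:78597073-78597322 on the minus strand and Cxcl10 at chr14:15988816-15989065 on the plus strand.
Nfkbia: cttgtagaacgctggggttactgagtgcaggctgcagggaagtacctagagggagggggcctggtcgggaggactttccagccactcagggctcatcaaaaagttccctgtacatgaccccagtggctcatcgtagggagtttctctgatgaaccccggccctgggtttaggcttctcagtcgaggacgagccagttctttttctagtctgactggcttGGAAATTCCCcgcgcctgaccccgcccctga
Cxcl10: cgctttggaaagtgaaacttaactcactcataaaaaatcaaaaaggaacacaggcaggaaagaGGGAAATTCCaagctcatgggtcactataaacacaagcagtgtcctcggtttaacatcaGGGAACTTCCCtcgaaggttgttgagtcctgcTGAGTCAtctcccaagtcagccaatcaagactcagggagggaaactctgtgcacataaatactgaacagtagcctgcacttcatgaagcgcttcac
In Nfkbia the capitals mark 1 match, at bases −31 to −22 from the start. In Cxcl10 they mark a match at −187 to −178, 2 overlapping ones at −128 to −119 and −127 to −118, and a match to the AP-1 motif TGANTCA at −96 to −90. Of the 30 genes of the higher set 23 had a promoter in the table, and 2 of these (8.7%) held the NF-kappaB-type letters, against 84 of 27457 promoters (0.31%). AP-1 letters were in 1 of the 23 (4.3%) and in 1747 of all 27457 (6.36%). The motifs were chosen after these promoters had been read, and a match is a description of letters only.

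Secreted proteins of the acute phase and the matrix were the next group. Timp1, an inhibitor of matrix metalloproteinases, had 1986, 1110, 1123 and 2022 on arrays 5 to 8 and 66.4, 172 and 445 on arrays 1, 3 and 4 (rc_AI169327_g_at). Array 4 was the highest of its block and lay at less than the signal of any of arrays 5 to 8. The difference was 2.59 (SE 0.45), or 6.02-fold, and the brighter Timp1 probe set (rc_AI169327_at) differed by 0.85 (SE 0.33), also without overlap. Lcn2, a lipocalin that binds iron carriers and is made by neutrophils and reactive astrocytes, had 1074, 652, 735 and 1111 on arrays 5 to 8 and 298, 178 and 170 on arrays 1, 3 and 4. All of arrays 5 to 8 stood clear of array 1, with a difference of 2.0 (SE 0.29). The matrix proteoglycan Vcan (AF072892_s_at) had 491, 862, 530 and 932 on arrays 5 to 8 and 392, 139 and 390 on arrays 1, 3 and 4, a difference of 1.15 (SE 0.26).

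Genes of phagocytes were represented by Lgals3 and Spp1. Lgals3, a lectin of activated macrophages, had 1354, 1101, 929 and 1259 on arrays 5 to 8 and 236, 554 and 454 on arrays 1, 3 and 4, a difference of 1.56 (SE 0.38). Osteopontin (Spp1) had 1351, 928, 588 and 532 on arrays 5 to 8 and 152, 433 and 383 on arrays 1, 3 and 4, a difference of 1.34 (SE 0.37). Both genes were lowest on array 1, and for Spp1 arrays 7 and 8 came near to array 3. The neutrophil calgranulin S100a9 had 470, 287, 451 and 545 on arrays 5 to 8 and 273, 189 and 72.5 on arrays 1, 3 and 4. Its difference of 1.004 put it just inside the line, with array 6 barely above array 1.

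Stress genes were also among the higher set. Hmox1, the enzyme that breaks down haem, had 4191, 3417, 3152 and 3966 on arrays 5 to 8 and 794, 1854 and 1390 on arrays 1, 3 and 4, a difference of 1.53 (SE 0.24). Its other probe set (J02722cds_at) had 1005, 1209, 744 and 1178 on arrays 5 to 8 and 354, 321 and 389 on arrays 1, 3 and 4, a difference of 1.52 (SE 0.37). Both Hmox1 probe sets thus separated the blocks by a wide margin. The heat shock protein gene Hspa1a had 832, 779, 495 and 1521 on arrays 5 to 8 and 362, 318 and 405 on arrays 1, 3 and 4, a difference of 1.22 (SE 0.61) in which array 8 stood above the others. Gclc, the first enzyme of glutathione synthesis, had 600, 731, 886 and 1056 on arrays 5 to 8 and 502, 437 and 406 on arrays 1, 3 and 4, a difference of 0.84 (SE 0.26), under 2-fold. Among genes of cell death, the pro-apoptotic Bid had 741, 812, 754 and 795 on arrays 5 to 8 and 151, 360 and 434 on arrays 1, 3 and 4, a difference of 1.34 (SE 0.30) with arrays 5 to 8 nearly level.

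Signalling genes of the higher set included Errfi1, a feedback inhibitor of the EGF receptor, with 803, 699, 997 and 1375 on arrays 5 to 8 and 306, 341 and 348 on arrays 1, 3 and 4. All of arrays 5 to 8 exceeded the even block of arrays 1, 3 and 4, with a difference of 1.501 (SE 0.45), while its brighter probe set (rc_AI169756_s_at) differed by 0.76 (SE 0.19) with overlap. Gpr182, a receptor of vessel cells, had 857, 938, 806 and 856 on arrays 5 to 8 and 392, 254 and 275 on arrays 1, 3 and 4, a difference of 1.52 (SE 0.38). Both blocks were even for this gene. Gadd45a, a DNA damage response gene, differed by 1.05 (SE 0.28) at probe set L32591mRNA_at and by 0.60 (SE 0.17) at its brightest probe set (L32591mRNA_g_at), and neither overlapped.

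**Figure D1:**
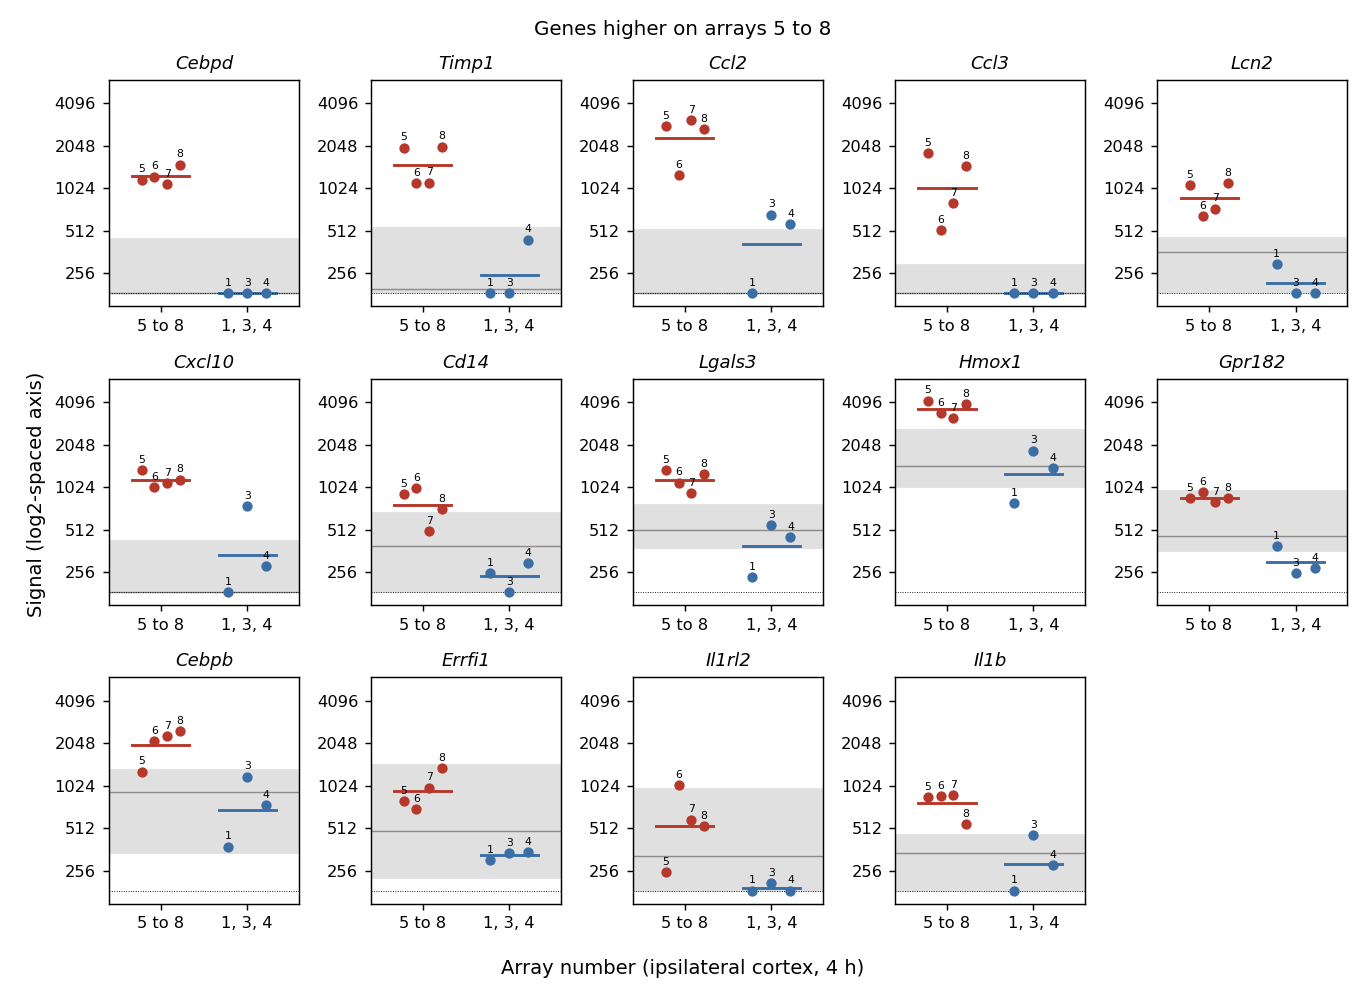
Signal on each of arrays 5 to 8 (red) and 1, 3 and 4 (blue) for the 14 genes with the largest differences in the higher set, on a log2-spaced axis with signals under the floor of 185.8 drawn at it (dotted line). Short bars are means of log2 signal, and the grey band and line are the range and median of the 8 contralateral cortex arrays at 4 h. For Cebpd and Ccl3 arrays 1, 3 and 4 sit at the floor, and for Cxcl10 array 3 comes close to the red points.

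The contralateral cortex at 4 h gave a level against which both blocks could be set. In the higher set, arrays 5 to 8 all lay outside the range of the 8 contralateral arrays for 21 of 46 probe sets, while arrays 1, 3 and 4 all lay inside it for 27. The median over the set was 0.92 log2 units above the contralateral median for arrays 5 to 8 and 0.46 below it for arrays 1, 3 and 4. In the lower set, arrays 5 to 8 all lay outside the contralateral range for 1 of 18 and arrays 1, 3 and 4 all inside it for 10, with medians of −0.64 and 0.55. Signals under the floor were raised to it for these counts. The same counts were not made over all 7972 probe sets, so no background share stands beside them. No test was made, since these values rest on the arrays that chose the sets.

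The lower set held genes of mixed roles. Triobp, which binds actin filaments, had 554, 476, 1081 and 334 on arrays 5 to 8 and 1655, 1538 and 2125 on arrays 1, 3 and 4, a difference of −1.66 (SE 0.62). Array 7 was nearest to the other block. Slc25a10, a dicarboxylate carrier of mitochondria, had 179, 258, 562 and 336 on arrays 5 to 8 and 996, 827 and 853 on arrays 1, 3 and 4, a difference of −1.53 (SE 0.50). Ndufv3, a subunit of complex I, had 54.8, 95.9, 265 and 64.0 on arrays 5 to 8 and 666, 485 and 367 on arrays 1, 3 and 4, a difference of −1.28 (SE 0.35) in which only array 7 of its block was above the floor. Gda, the enzyme guanine deaminase, was below the floor on all of arrays 5 to 8 and had 444, 265 and 815 on arrays 1, 3 and 4, so its difference of −1.30 (SE 0.55) is a lower limit in size. Slc25a10, Ndufv3 and Gda each have brighter probe sets, and those overlapped between the blocks.

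Regulators in the lower set included Hes5, a repressor switched on by Notch in neural progenitors and astrocytes. Its signals were 367, 1238, 1022 and 612 on arrays 5 to 8 and 2434, 1371 and 1490 on arrays 1, 3 and 4, a difference of −1.23 (SE 0.25) with array 6 close under array 3. Egr2, an immediate early zinc finger factor, had 425, 736, 479 and 377 on arrays 5 to 8 and 1211, 1663 and 775 on arrays 1, 3 and 4, a difference of −1.25 (SE 0.36) with array 6 just under array 4. The carnitine transporter Slc22a5 (−1.23, SE 0.60), Skida1 (−1.23, SE 0.38), the receptor kinase Grk4 (−1.19, SE 0.50) and the potassium channel subunit Kcnj9 (−1.19, SE 0.47) completed the 10 largest. Within arrays 5 to 8, array 5 was the lowest for 10 of the 18 probe sets, array 6 for 3, array 7 for 1 and array 8 for 4. In the higher set the highest array was array 5 for 12, array 6 for 14, array 7 for 6 and array 8 for 14, so no single array of the block led it.

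**Figure D2:**
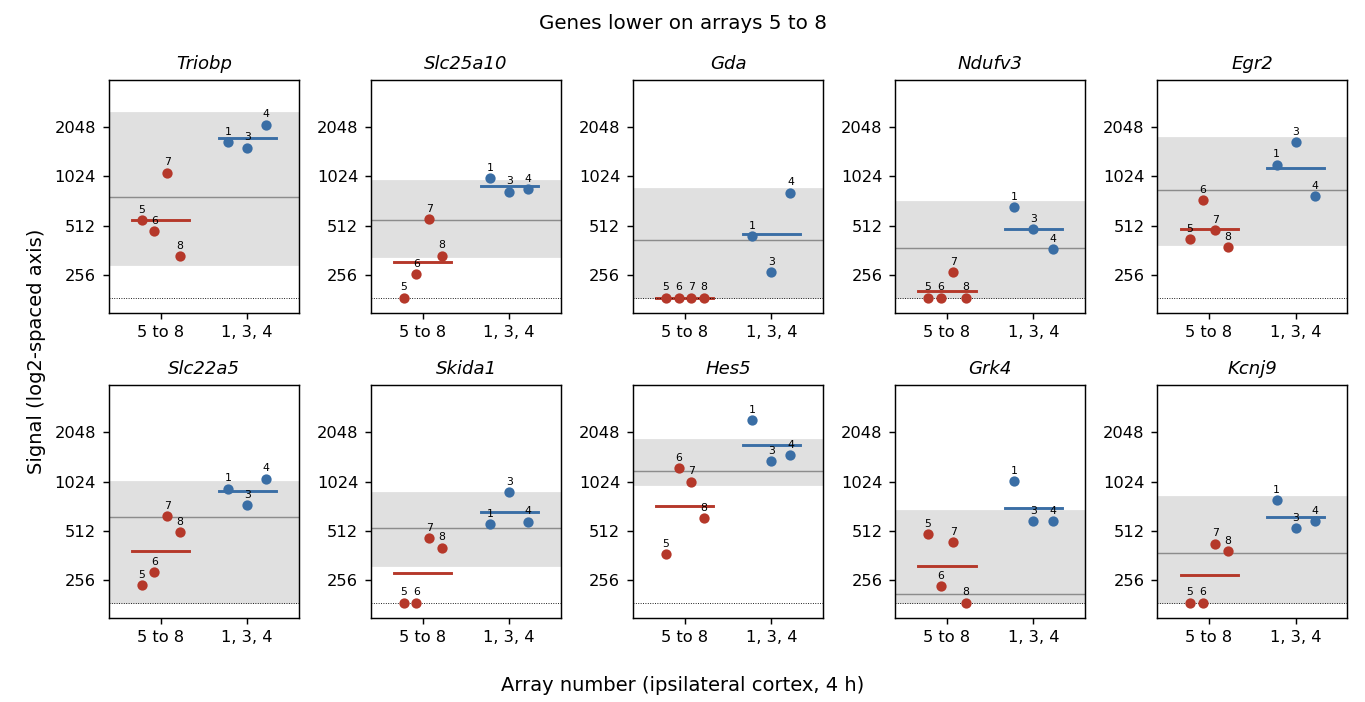
Signal on arrays 5 to 8 (red) and 1, 3 and 4 (blue) for the 10 genes with the largest differences in the lower set, drawn as for the higher genes, with the contralateral range in grey. Gda sits at the floor on all of arrays 5 to 8, and for most genes the red points lie inside the contralateral range.

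Gene lists place these genes among others of their kind. Over all 4436 genes, each read from its brightest probe set, 115 (2.59%) were above and 159 (3.58%) below without overlap between the blocks at any size, and the median difference was −0.01. Of 28 chemokines and cytokines 4 were above and 1 below, with a median of 0.32. Above were Ccl3, Ccl2, Cxcl10 and Il1b, and below was the neuronal chemokine Cx3cl1 (−0.36, SE 0.11). Interleukin-1 alpha (Il1a, 1.42, SE 0.54) was as far apart in its means as Il1b, but its arrays overlapped. Among 18 inflammatory regulators 3 were above and 0 below, with Nfkb1, a subunit of NF-kappaB, at 0.50 (SE 0.22) and the cytokine kinase Jak2 at 0.49 (SE 0.22) beside Cebpb, and a median of 0.24. Of 16 interferon response genes 3 were above and 0 below, with a median of 0.11. Cxcl10 was followed there by the membrane protein gene Ifitm3 (0.58, SE 0.20) and the peptide transporter gene Tap2 (0.42, SE 0.30).

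Immediate early genes divided. Of 32 measured, 3 were above, 6 below and 23 overlapped, with a median of −0.01. Above were Myc, the zinc finger factor Klf4 (0.70, SE 0.27) and Gadd45a. Below were genes that neuronal activity induces in neurons, Egr2, Egr4 (−0.75, SE 0.27), Egr1 (−0.67, SE 0.16), the orphan receptor Nr4a3 (−0.58, SE 0.23), and the kinase phosphatases Dusp6 (−0.78, SE 0.17) and Dusp1 (−0.53, SE 0.28). Dusp6 had 3098, 3002, 3873 and 3230 on arrays 5 to 8 and 5530, 6498 and 4942 on arrays 1, 3 and 4, the blocks lying well apart. Fos (X06769cds_g_at) differed by 0.11 (SE 0.23) with overlap.

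Of the cell type lists, microglia and macrophage markers had 2 of 22 above, Lgals3 and Spp1, and 0 below, with a median of 0.22 and summed signals of 50982 to 53895 on arrays 5 to 8 and of 42338 to 48361 on arrays 1, 3 and 4. Defining microglial genes in that list overlapped, with Aif1 at 0.25 (SE 0.27), C1qb at 0.24 (SE 0.16) and Cx3cr1 at −0.92 (SE 0.33). Among 16 endothelial and adhesion genes the leukocyte adhesion molecule Icam1 (0.74, SE 0.34) was above, and the vessel transporters Abcb1a (−0.81, SE 0.36) and Slco1a4 (−0.71, SE 0.18) were below. Neuronal and synaptic markers had 0 of 25 above and 1 below, the vesicle protein gene Vamp2 (−0.21, SE 0.09), with a median of −0.12. Oligodendrocyte and myelin markers (11 genes, median −0.13), GABA system and interneuron genes (25, median −0.05), cytosolic ribosomal proteins (29, median 0.06) and cell cycle genes (19, median −0.15) had 0 above and 0 below. Of 20 heat shock and unfolded protein genes only Hspa1a was separated, and of 15 cholesterol synthesis genes only Insig1, a sterol sensor (0.63, SE 0.15). The 23 hypoxia and glycolysis genes had 0 above and 4 below, Egln3 (−0.34), Ldhb (−0.33), Aldoc (−0.26) and Pkm (−0.12).

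Further lists held few separated genes. Of 15 neutrophil and lymphocyte markers Lcn2 and S100a9 were above and 0 below, with a median of 0.01. Of 29 matrix and protease genes 3 were above (Vcan, Timp1 and Fn1, which encodes fibronectin) and 1 below (the collagen gene Col3a1), and of 22 reactive astrocyte genes Timp1 was above and S100b below. Of 21 metallothionein and oxidative stress genes Hmox1 and Gclc were above, and of 16 cell death genes Bid, the caspase Casp6 and Gadd45a, with 0 below in either list. The lists read only probe sets that name 1 gene. Outside them, the higher set held rc_AI176456_at, annotated to the metallothionein genes Mt1m and Mt2A (1.30, SE 0.50). It also held rc_AI102562_at, annotated to Mt1f, Ttr and Mt1 (1.07, SE 0.26). Growth factors and receptors (37 genes) had 1 above, Pdgfa, and 2 below, Nrg1 and Igf2. Glucocorticoid-responsive genes (11) had the clock gene Per2 above and Dusp1 below. The list named voltage-gated channels (33) had 0 above and 2 below, Kcna4 and the potassium channel subunit Kcnj9, which is not voltage-gated. Glutamate receptors and transporters (23) had 0 above and 1 below, Grik4, and oxidative phosphorylation genes (19) had 2 above, Ndufa5 and Cox5b, and 1 below, Atp5pf. Medians of these lists lay between 0 and 0.14.

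**Figure D3:**
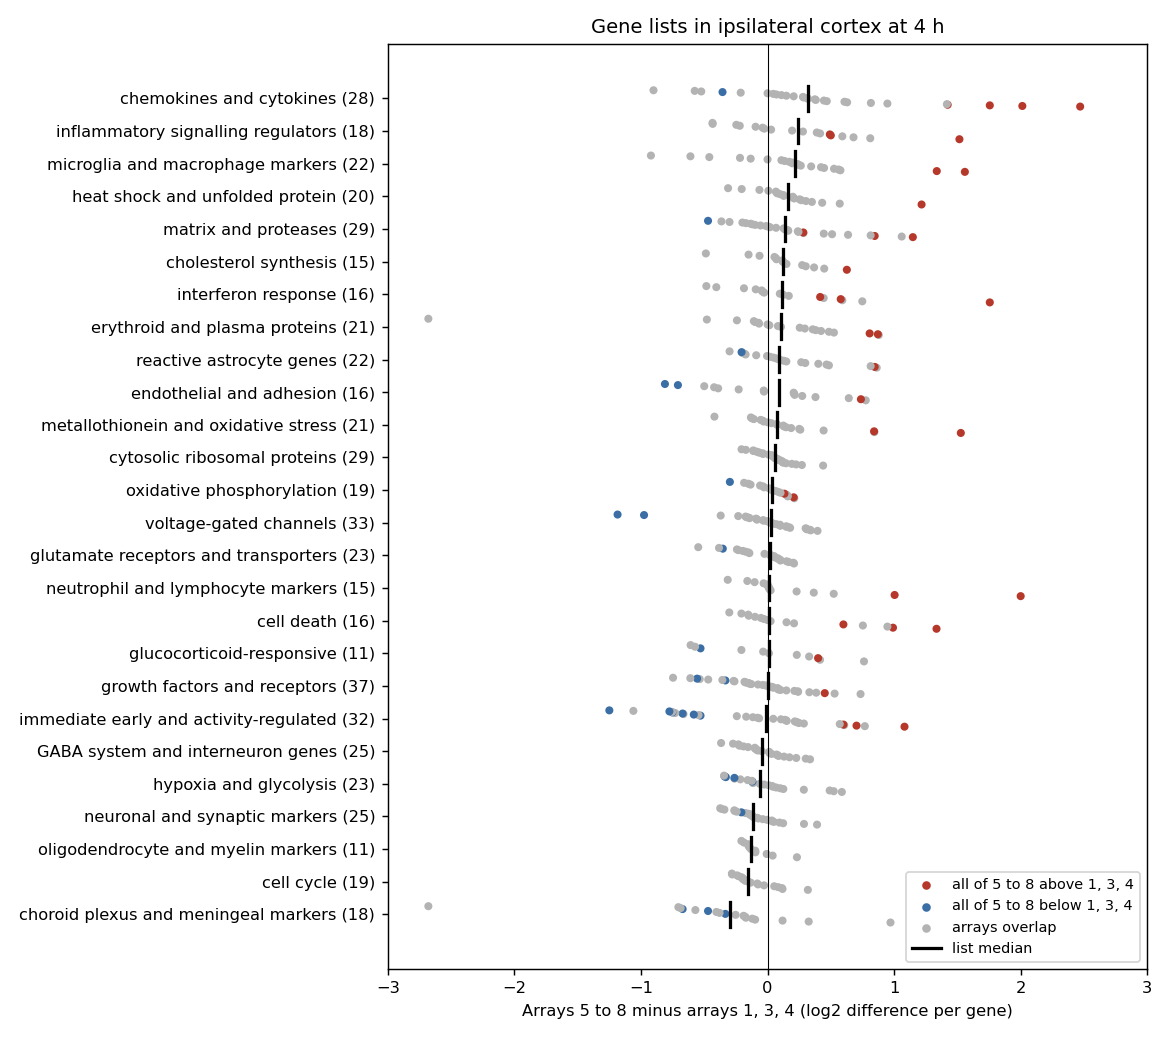
Log2 difference of arrays 5 to 8 minus arrays 1, 3 and 4 for every measured gene of 26 lists, ordered by list median (black bars), with the number of genes in brackets. Red genes had all of arrays 5 to 8 above arrays 1, 3 and 4, blue genes all below, and grey genes overlapped. Most genes of every list are grey, and the largest red values are those of Ccl2, Ccl3, Lcn2 and Cxcl10.

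Markers of blood, choroid plexus and meninges were read on the same arrays. The haemoglobin gene Hbb had 90260, 53520, 70000 and 76630 on arrays 5 to 8 and 29150, 42220 and 48200 on arrays 1, 3 and 4, all of arrays 5 to 8 being higher (0.87, SE 0.17). Summed signal of the 21 erythroid and plasma protein genes ran from 107220 to 175270 on arrays 5 to 8 and from 70955 to 153360 on arrays 1, 3 and 4, and 2 of these genes were above without overlap. Among the other red cell markers, Alas2 differed by 0.52 (SE 0.22) and Slc4a1 by −0.48 (SE 0.25), both with overlap. Choroid plexus and meningeal genes had 0 of 18 above and 3 below (Igf2, Col3a1 and Aldh1a2), a median of −0.29, and sums of 41003 to 47687 on arrays 5 to 8 and of 48746 to 113690 on arrays 1, 3 and 4. Ttr, a transport protein made by choroid plexus, ran from 586 to 2880 on arrays 5 to 8 and from 854 to 60300 on arrays 1, 3 and 4. A probe set annotated to ribosomal RNA genes had 868, 1382, 447 and 423 on arrays 5 to 8 and 207, 394 and 238 on arrays 1, 3 and 4, and it belongs to the higher set. The part of any of these in the differences of other genes was not tested. Without arrays 5 and 6, the highest in both ribosomal probe sets, the higher and lower sets held 71 and 148 probe sets. This alternative was chosen after seeing the data, and fewer arrays overlap less easily.

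Ipsilateral hippocampus at 4 h was tested to see whether the same probe sets differed in another tissue between later-numbered and earlier-numbered arrays. Of the 46 probe sets of the higher set, 18 rose there, where 0.489% of all 7972 probe sets rose and 0.0376% fell. None of the 46 fell, and of the 18 in the lower set none rose or fell (limma, adjusted p under 0.05 over all probe sets, where 454 of 7972 lay under an unadjusted p of 0.05). The median difference in hippocampus was 0.98 over the higher set and −0.09 over the lower set, against a median of 0 over all probe sets tested.

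Within the higher set, the hippocampal rise was largest for the chemokine Ccl2. Ccl2 had 8786, 2002 and 6511 on arrays 21, 22 and 24 and 124, 52.8, 22.7 and 220 on arrays 17 to 20. Every later-numbered array was far above the others, with a rise of 4.65 (SE 0.40, limma adjusted p = 1.13e-10). Ccl3 had 2189, 658 and 1163 on arrays 21, 22 and 24 and was below the floor on arrays 17 to 20, a rise of 2.68 (SE 0.28, limma adjusted p = 2.48e-08) that is a lower limit. Cxcl10 rose by 2.70 (SE 0.33, limma adjusted p = 8.23e-07), with 1919, 1100 and 1358 on arrays 21, 22 and 24 and 355, 29.4, 178 and 131 on arrays 17 to 20. Il1b rose by 1.88 (SE 0.35, limma adjusted p = 0.00141).

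The same C/EBP factor and secreted proteins rose in hippocampus. Cebpd had 1446, 960 and 1484 on arrays 21, 22 and 24 and was below the floor on arrays 17 to 20, a rise of 2.78 (SE 0.22, limma adjusted p = 1.45e-11). Of its other probe sets, M65149_at rose by 1.62 (SE 0.31, limma adjusted p = 0.00206) and rc_AA946292_at was at 0.06 (1). Timp1 rose by 3.33 (SE 0.45, limma adjusted p = 4.53e-06), with 1985, 1456 and 2706 on arrays 21, 22 and 24 and 68.0, 235, 52.6 and 38.3 on arrays 17 to 20. Lcn2 rose by 2.33 (SE 0.29, limma adjusted p = 7.28e-07), Spp1 by 2.33 (SE 0.37, 0.000105) and Cd14 by 1.98 (SE 0.37, 0.00138). Smaller rises were those of Lgals3 (1.72, SE 0.38, limma adjusted p = 0.0146), Hmox1 (1.02, SE 0.24, 0.0236) and Nfkbia (0.98, SE 0.21, 0.0103). Each of these 3 lost its call when 1 of the 7 arrays was left out, with adjusted p of up to 0.288, 0.262 and 0.175. The other 15 of the 18 kept it on leaving out any of the 7. When limma was fitted to the 7 hippocampal arrays alone, 4 of the 18 passed (Timp1, Cebpd, Lcn2 and a probe set for which the annotation names no gene), with 8 probe sets called in all and 619 under an unadjusted p of 0.05. In the model of all arrays 42 probe sets were called in hippocampus, and without array 24 the number was 26, of which 15 were in the higher set.

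Some genes of the higher set did not pass in hippocampus. Cebpb was 0.81 (SE 0.33, limma adjusted p = 0.591) higher there, Myc 0.99 (SE 0.32, 0.273), S100a9 0.75 (SE 0.27, 0.415) and Bid 0.39 (SE 0.30, 1). Il1rl2 had 123, 188 and 140 on arrays 21, 22 and 24 and 571, 92.9, 135 and 119 on arrays 17 to 20, so it was at or near the floor on most arrays. Among genes of lower signal on arrays 5 to 8, Slco1a4, an anion transporter of the blood-brain barrier, fell in hippocampus by 0.91 (SE 0.18, limma adjusted p = 0.00466), although it missed the 2-fold line in cortex. Hes5 was at −0.67 (SE 0.25, limma adjusted p = 0.466) and Egr2 at −0.47 (SE 0.36, 1) in hippocampus. Hes5 was also at −0.68 (SE 0.23, limma adjusted p = 0.301) in cortex at 24 h and −0.55 (SE 0.23, 0.624) in contralateral cortex. It was below without overlap in each of these groups, though it passed in none. Egr2 was at −0.10 (SE 0.34) at 24 h and −1.09 (SE 0.34, limma adjusted p = 0.302) in contralateral cortex, both with overlap. Haemoglobin Hbb was at 0.34 (SE 0.17, limma adjusted p = 0.879).

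Ipsilateral cortex at 24 h was tested for the same tissue at a later time. Of the higher set 8 probe sets rose, where 0.652% of all 7972 rose and 0.163% fell (limma, 505 under an unadjusted p of 0.05), and none fell. None of the lower set rose or fell. The median difference at 24 h was 0.34 over the higher set. The 8 probe sets were those of Spp1, Timp1, Lgals3, Lcn2, and Ccl2 and Hmox1 with 2 each. Of these, 7 were also among the 18 of hippocampus, 11 rose in hippocampus and did not pass at 24 h, 1 (Hmox1, J02722cds_at) passed at 24 h and not in hippocampus, and 27 passed in neither.

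Spp1 had 9397, 9103, 4533 and 5015 on arrays 37 to 40 and 160, 116, 390 and 519 on arrays 33 to 36, a rise of 4.52 (SE 0.34, limma adjusted p = 4.83e-12). Every later-numbered array was many times above the highest of the others. Lgals3 had 2823, 5499, 2172 and 2514 on arrays 37 to 40 and 406, 533, 804 and 751 on arrays 33 to 36, a rise of 2.34 (SE 0.36, limma adjusted p = 4.5e-05). Timp1 rose by 2.87 (SE 0.41, 1.82e-05), Ccl2 by 2.49 (SE 0.37, 2.58e-05), Lcn2 by 1.96 (SE 0.26, 6e-06) and Hmox1 by 1.38 (SE 0.22, 8.54e-05), all by limma with adjusted p. Each of the 8 kept its call on leaving out any of the 8 arrays, and Spp1 alone passed when limma was fitted to those 8 arrays by themselves (28 probe sets called, 733 under an unadjusted p of 0.05).

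Genes that stood out at 4 h in both tissues and did not pass at 24 h included Ccl3 (0.24, SE 0.26, limma adjusted p = 1), with 186, 80.3, 46.7 and 403 on arrays 37 to 40 and 25.4, 70.2, 210 and 48.6 on arrays 33 to 36. Cebpd was at 0.23 (SE 0.20, limma adjusted p = 1) for rc_AI045030_s_at, with only array 39 of arrays 37 to 40 above the floor, and at 0.83 (SE 0.29, 0.319) for M65149_at, without overlap. Cxcl10 was at 0.89 (SE 0.31, limma adjusted p = 0.319) and Il1b at 0.50 (SE 0.32, 1). The difference in size between times was not tested. Of microglia and macrophage markers 6 of 22 rose at 24 h, where 0.652% of all probe sets rose, and 4 of 22 in hippocampus, where 0.489% rose, among them C3 and Fcgr2b, which overlapped between the blocks in cortex at 4 h. The markers are counted as genes, each read from its brightest probe set, so these shares of probe sets are in another unit.

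Contralateral cortex at 4 h was tested for the same time and tissue on the other side. Of the higher set 2 probe sets rose there, where 0.0627% of all 7972 rose and 0.0753% fell (limma, 588 under an unadjusted p of 0.05). Neither names 1 gene. One of these, rc_AI102562_at, is annotated to several genes (Mt1f, Ttr and Mt1), and for the other, M11794cds#2_f_at, no gene is named. They rose by 1.38 (SE 0.24, limma adjusted p = 0.00493) and 1.26 (SE 0.21, 0.00486), and both rose in hippocampus too. On arrays 5 to 8 M11794cds#2_f_at had 20470, 22910, 15720 and 20770, and on arrays 1, 3 and 4 it had 3795, 8200 and 7527, well apart. Fitted to the 8 contralateral arrays alone, limma called 0 probe sets, with 307 under an unadjusted p of 0.05. The model of all arrays called 11, and 2 to 18 on leaving out 1 of those 8 arrays (2 without array 11, 4 without array 9 or 13, 5 without array 14 and 18 without array 12).

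The chemokine and C/EBP genes did not pass on the contralateral side, with Ccl2 at 0.57 (limma adjusted p = 0.787), Ccl3 at 0.16 (0.974) and Timp1 at 0.22 (0.978). Cebpd was at 0.32 (limma adjusted p = 0.78) with overlap for rc_AI045030_s_at and at 1.23 (SE 0.29, 0.0758) for M65149_at, where all of arrays 13 to 16 were higher than any of arrays 9 to 12. Immediate early genes below on arrays 5 to 8 did include members that fell there. Egr1, named after its values were seen, fell by 0.75 (limma adjusted p = 0.0199) and Nr4a3 by 1.04 (0.0291), 2 of the 32 genes of that list. Of all probe sets, a unit other than genes, 0.0753% fell there. Neither gene passed in the fit to the contralateral arrays alone, which called 0 probe sets. In ipsilateral cortex at 4 h both had been below without overlap. Over the higher set the contralateral median was 0.38, and over the lower set it was −0.26. Of the 46 contralateral differences of the higher set 39 were above 0, against 52.9% of all 7972 probe sets. The count was also 39 in hippocampus and at 24 h, where 54.9% and 52.5% of all were above 0.

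**Figure D4:**
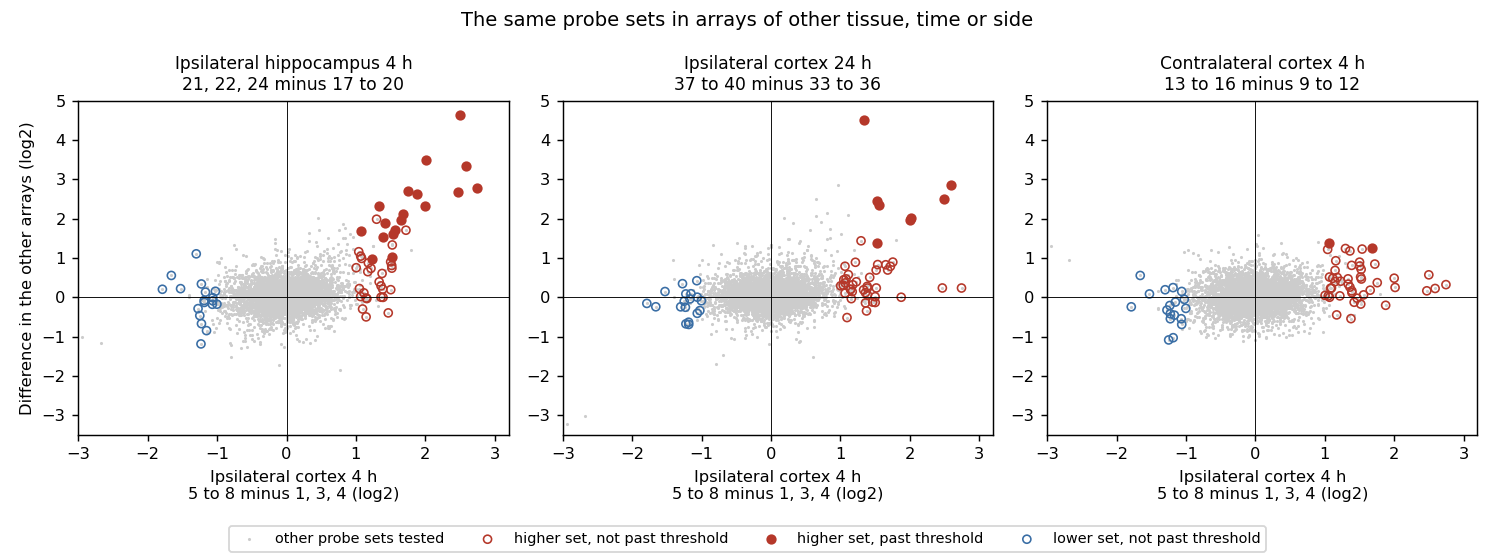
Log2 difference of arrays 5 to 8 minus arrays 1, 3 and 4 (horizontal) against the difference of later-numbered minus earlier-numbered arrays in ipsilateral hippocampus at 4 h, ipsilateral cortex at 24 h and contralateral cortex at 4 h (vertical), for 7972 probe sets. Circles are the higher (red) and lower (blue) sets, filled where limma's adjusted p was under 0.05. There are 18 filled circles in hippocampus, 8 at 24 h and 2 on the contralateral side, and no blue circle is filled.

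Read from the other end, 39 probe sets rose in hippocampus, and 24 of these were above without overlap on arrays 5 to 8 of cortex at 4 h. Of all 7972 probe sets, 243 were above without overlap there. The 18 within the higher set were 46.2% of the 39, and the median difference of the 39 in cortex at 4 h was 0.85. Of the 52 that rose in cortex at 24 h, 22 were above without overlap on arrays 5 to 8, 8 (15.4%) were in the higher set, and the median was 0.43. The chemokine and cytokine list rose in 5 of 28 members in hippocampus (Ccl3, Ccl2, Cxcl10, Il1b and Ccl4), in 1 at 24 h (Ccl2) and in 0 on the contralateral side. Among all probe sets 0.489% rose in hippocampus, 0.652% at 24 h and 0.0627% on the contralateral side. Shares over all count probe sets, whereas members of the lists are genes, each read from its brightest probe set. Ccl4 was at 0.47 (SE 0.35) with overlap in cortex at 4 h. Of 18 inflammatory regulators only Nfkbia rose in hippocampus, and 0 passed at 24 h or on the contralateral side. Of 16 interferon response genes 3 rose in hippocampus, Cxcl10, Ifitm3 and the GTPase gene Gbp2, and 1 at 24 h, Ifitm3 (1.05, SE 0.18, limma adjusted p = 0.000323). Cholesterol synthesis genes fell in 4 of 15 members at 24 h, where 0.163% of all probe sets fell, Insig1 among them (−0.61, SE 0.14, limma adjusted p = 0.0127), whereas Insig1 had been above on arrays 5 to 8 at 4 h.

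Array means of whole lists show how even the blocks were. The mean of the chemokine and cytokine list, each gene centred on its mean over the 47 arrays, was 0.67, 0.31, 0.30 and 0.27 on arrays 5 to 8 and −0.13, 0.06 and −0.17 on arrays 1, 3 and 4. Array 5 was the highest, and the blocks did not overlap. The mean of the microglia and macrophage list was 0.29, 0.12, 0.07 and 0.18 on arrays 5 to 8 and −0.24, 0.14 and −0.09 on arrays 1, 3 and 4, with array 3 inside the range of arrays 5 to 8. At 24 h the same list stood at 0.82, 1.11, 0.75 and 0.75 on arrays 37 to 40 and between −0.15 and 0.03 on arrays 33 to 36.

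**Figure D5:**
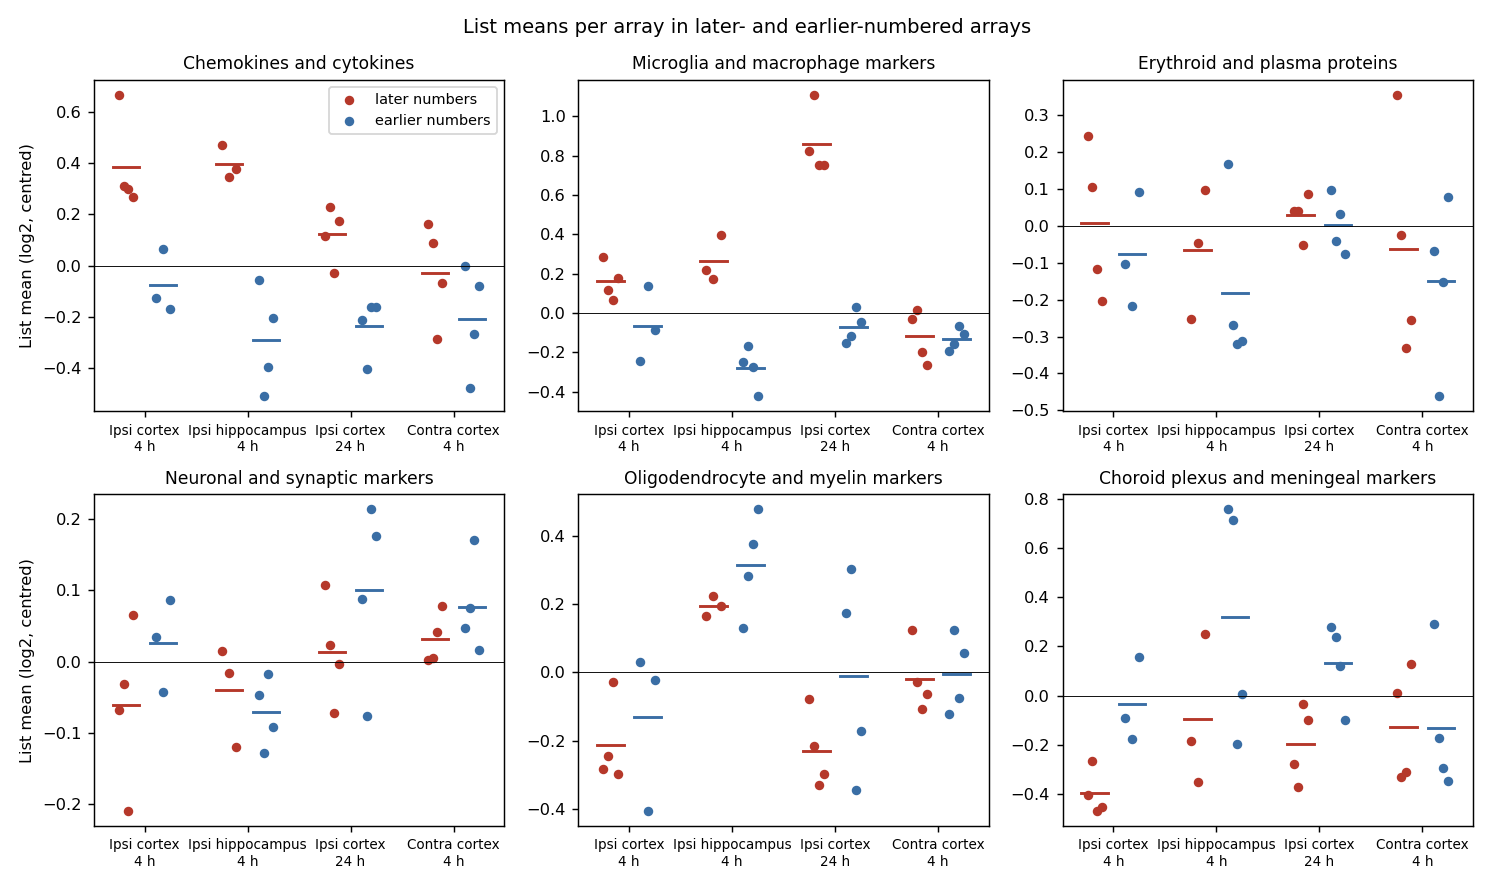
Mean log2 signal of 6 gene lists on each array, each gene centred on its mean over all 47 arrays, for later-numbered (red) and earlier-numbered (blue) arrays of 4 tissue, side and time groups; bars are means. The chemokine and cytokine means of arrays 5 to 8 lie above those of arrays 1, 3 and 4, the choroid plexus and meningeal means lie below, and the neuronal, oligodendrocyte and erythroid means overlap.

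The 2-fold line divides near values. Just inside the higher set lay S100a9 (1.004) and Cth (1.04), and just outside lay Vav2 (0.995) and Casp6 (0.99). Just inside the lower set lay Adcy5 (−1.003) and Slc32a1 (−1.03), whose brighter probe set AF030253_at was at −0.19 (SE 0.11) with overlap, and just outside lay Grhpr (−0.98) and Kcna4 (−0.98). The other genes of the higher set had differences between 1.04 and 1.39: Gnl3, a nucleolar protein, Arg2, the mitochondrial arginase, Tap1, a peptide transporter, Ckm, a creatine kinase, Slc34a1, a phosphate transporter, Oma1, a mitochondrial protease, and Nudt6. The other genes of the lower set were Papss2 (−1.17), which makes the sulfate donor of sulfation, Cep95 (−1.15), the phosphodiesterase Pde3b (−1.07) and Cblif (−1.06). The remaining 12 probe sets of the higher set and 2 of the lower set name several genes or none.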

How the data were processed

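RNA of 47 rat brain samples was measured on oligonucleotide arrays. The values deposited by the authors are a linear intensity for each probe set, called signal. How they were summarised from the probes and scaled is not given in the sources used here. Trimmed means agreed closely between arrays (2503 to 2504 for the ipsilateral cortex arrays at 4 h), so values were kept as deposited, raised to a floor at the 25th percentile (185.8), and log2 was taken. Of 8799 probe sets, 59 controls and those above the floor on fewer than 3 arrays were left out (7972 remained). Gene symbols are those of the platform's annotation after an update by gene ID (7018 probe sets name 1 gene, 308 several and 1473 none; 6428 of 6446 tested with 1 symbol matched).

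One linear model with a mean per block of sample numbers was fitted to all 47 arrays in limma 3.58.1 (with R 4.3.3 and version 1.17.8 of data.table), with moderated two-sided tests, an intensity trend and Benjamini-Hochberg adjustment over 7972 probe sets at 0.05. Array 23, labelled contralateral hippocampus within a run of ipsilateral numbers, was a group of its own. The comparison of arrays 5 to 8 with 1, 3 and 4 got no test, and its SEs are those of this model. Its members, the 26 gene lists (535 of 733 genes tested, each by its probe set of highest mean) and the motifs were chosen with earlier results of these data known. Genes were named by a rule: the 14 largest differences of the higher and 10 of the lower set, and up to 4 non-overlapping genes per list (64 genes); others are named to account for the sets or with values only. The limma procedure was tried on simulated normal values without a floor and with the same spread in all groups. That trial does not cover transcripts at the floor or the 2-fold sets. Array number limits the precision; no 2 arrays were near-identical (highest r 0.988). Alternatives were another floor, quantile normalization, other filters, fits to the compared arrays alone, array weights and leaving out arrays.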

Additional observations from a re-analysis of the deposited data

Results flagged for a closer look

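Among arrays 5 to 8, 4 of 66 named probe sets had 1 array far from the other 3 (a gap to the nearest, divided by the range, above Dixon's critical value), where chance gives about 1 in 20. Array 6 was low for Ccl2 (X17053mRNA_s_at, signal 1280, gap over range 0.83) and array 8 was low for Il1b (551, 0.939). Array 7 was high for Ndufv3 (265), where the other 3 were at the floor. Its gap over range was thus 1 by construction, and the critical value does not hold for it. For the glycolytic enzyme gene Pkm array 8 was low (40800, 0.852). The far arrays differed between the genes.

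For 3 genes every array of a block lay on the opposite side elsewhere, a difference that was not tested. The potassium channel gene Kcna4 was lower on arrays 5 to 8 than on arrays 1, 3 and 4 (−0.98) and higher on arrays 21, 22 and 24 than on arrays 17 to 20 of hippocampus (0.346, limma adjusted p = 1). The collagen gene Col3a1 was lower on arrays 5 to 8 (−0.47) and higher on arrays 37 to 40 than on arrays 33 to 36 at 24 h (0.27, limma adjusted p = 1), and so was Aldh1a2, a retinoic acid enzyme of the meninges (−0.67 at 4 h, 0.426 at 24 h, limma adjusted p = 1).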

How the results depend on the processing

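With a floor at the 10th percentile 93 probe sets were in the higher set and 65 in the lower (all 46 and 18 among them). Without arrays 5 and 6, chosen after seeing the data, they held 71 and 148. Leaving out 1 of the 7 arrays gave 52 to 69 higher and 30 to 65 lower. Fewer arrays and a lower floor make separation easier by construction. In hippocampus 42 probe sets were called (26 to 48 on leaving out 1 array, 26 without array 24), of the higher set 18 (15 to 19). In cortex at 24 h these were 65 (48 to 68) and 8 (8 to 8), and in contralateral cortex 11 (2 to 18) and 2 (2 to 3). Contralateral calls were 4 without array 9, 2 without array 11, 18 without array 12, 4 without array 13 and 5 without array 14. Fits to the compared arrays alone called 8, 28 and 0 in hippocampus, cortex at 24 h and contralateral cortex (619, 733 and 307 under an unadjusted p of 0.05), with 4, 1 and 0 of the higher set. Array weights gave 95, 198 and 4, with 13 of the higher set at 24 h, and quantile normalization gave 4 in contralateral cortex. The cause of these changes was not tested. Of 66 named differences, 60 moved by less than 1 SD with the lower floor and 6 by more, all 66 and all 462 values stayed within it with quantile normalization and on leaving out arrays, and 0 reversed. No paired analysis was possible because each sample number occurs once in the series. The number of arrays, and transcripts at the floor, limit what can be seen.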
